A study of Homo sapiens with 6 samples.

Results

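GAS5, SNHG1, SNHG3, SNHG5, SNHG6, SNHG7, SNHG8, SNHG9, SNHG12 and SNHG15 are long noncoding genes whose introns hold small nucleolar RNAs. They were chosen by name, as noncoding hosts. No measured value entered that rule, but earlier results of these data were known when it was set. All 10 are on the array, with 14 of its 47321 probes. U2OS, a human osteosarcoma cell line, was transfected with a control siRNA, called siCTRL in the labels and siLUC in the study, or with 4 pooled siRNAs that target CCAR2 (siCCAR2), and total RNA was taken 6 days later. Independent triplicates were hybridized to Human HT12_v4 bead arrays, here A, B and C for siLUC and D, E and F for siCCAR2, after their sections on the chip. Both groups carry the CCAR2 gene unaltered and differ only in the siRNA named, so that siCCAR2 cells are a model of partial silencing. The question asked of these genes was whether the spliced hosts moved as the small nucleolar RNAs did.

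Small nucleolar RNAs guide chemical modification of ribosomal and spliceosomal RNA. C/D box RNAs (SNORD genes) guide methylation of ribose, H/ACA box RNAs (SNORA genes) guide the change of uridine to pseudouridine, and Cajal body RNAs (SCARNA genes) serve the small nuclear RNAs of the spliceosome. In human cells most of them are cut from introns after the host transcript has been spliced, and in many noncoding hosts the spliced exons encode no known protein. Many hosts, like the genes of ribosomal proteins, belong to the class whose RNA opens with a C and a run of pyrimidines (5' terminal oligopyrimidine genes). The spliced transcripts of GAS5 and of several SNHG genes are known targets of nonsense-mediated decay, the pathway that removes RNAs with early stop codons.

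The sequences around the annotated start are shown for the 5 hosts that were both measured and present in the promoter table of RefSeq (GRCh38.p14), to set the letters at the start beside this class and to show the TATA box, a core promoter element, where one is present. Each window runs 5' to 3' on the transcribed strand, with 40 bases before the start and 30 from it on. Capitals mark the letters TATAA and the run of C and T, opening with C, that lies at the start.
SNHG1 (chr11:62855856-62855925, minus strand): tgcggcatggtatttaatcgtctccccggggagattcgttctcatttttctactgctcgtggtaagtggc
SNHG5 (chr6:85678704-85678773, minus strand): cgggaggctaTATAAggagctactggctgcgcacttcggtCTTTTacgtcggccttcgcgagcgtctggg
SNHG7 (chr9:136728155-136728224, minus strand): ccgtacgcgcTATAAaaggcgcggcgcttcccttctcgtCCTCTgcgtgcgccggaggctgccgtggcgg
SNHG8 (chr4:118278722-118278791, plus strand): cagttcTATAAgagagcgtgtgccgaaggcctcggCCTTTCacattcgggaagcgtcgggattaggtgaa
SNHG12 (chr1:28581844-28581913, minus strand): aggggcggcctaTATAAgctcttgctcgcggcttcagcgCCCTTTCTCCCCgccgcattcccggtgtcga

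Of the 10 hosts, 7 matched the promoter table, GAS5 and SNHG3 among them, and SNHG6, SNHG9 and SNHG15 are named only. The letters TATAA were searched between 40 and 20 bases before the start. On the transcribed strand they were found in SNHG5, SNHG7, SNHG8 and SNHG12, which is 4 of the 7 matched hosts, and in 3.82% of all 35116 promoters. On the other strand they were found in 0 of the 7 and in 1.61% of all promoters. A run of at least 5 pyrimidines (C or T) that opened with C within 5 bases of the start, which can overlap no TATAA letters, was found in the same 4 hosts and in 21.1% of all promoters. With the C exactly at the annotated start and 4 or more pyrimidines after it, SNHG5 and SNHG12 remained, against 4.07% of all promoters. In SNHG8 the run began 5 bases before the annotated start and in SNHG7 and SNHG12 1 base before it. SNHG1 opened with C but its run was 3 bases long. These matches describe letters only.

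CCAR2 had normalized log2 signals of 11.43, 11.34 and 11.01 in siLUC arrays and of 9.88, 9.96 and 9.91 in siCCAR2 arrays, with no overlap of the groups (log2 fold change of -1.34, with an adjusted p = 0.0394 in limma). On each array 37.2% to 41.0% of probes were detected, that is, had a detection p-value under 0.01 against negative control beads. Of 6 markers of the osteoblast and mesenchymal lineage, RUNX2, COL1A1, VIM, SPARC and ALPL were detected, and COL1A2 was not. All 5 had lower means in siCCAR2 cells (median log2 fold change of -0.18, from -1.71 for SPARC to -0.092 for COL1A1), and what part this had in the values of the hosts was not tested. Of 8 markers of epithelium, blood and endothelium, 6 were not detected in any array, EPCAM was detected in all 6 and PECAM1 in 1. The chip was the same for all 6 arrays and siLUC took its first sections, so an effect of position cannot be told apart from that of silencing. The p-values measure the spread between these arrays, and 3 arrays per condition limit the precision. A gene was called when its change reached 1.5-fold with an adjusted p no higher than 0.05 in limma. Without pairs this held for 3 genes, CCAR2, SPARC and SP140. The study, which used robust spline normalization, reports many more genes at a 1.5-fold change than these 3. With the pairs A-D, B-E and C-F as a block, which no label gives, 200 genes were called here, and under the other pairings 0 to 15.

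None of the hosts was called in any of these fits. Values below are of the fit without pairs unless a block is named. GAS5 and SNHG3, each with 1 probe, were not detected in any array, so no fold change is given for them. The remaining 12 probes, of 8 genes, were detected in all 6 arrays. All 8 genes had a mean above that of siLUC cells, between 1.08-fold for SNHG6 and 1.40-fold for SNHG7, with adjusted p between 0.776 and 0.919 in limma. Of all 12013 genes tested, 50.9% had a log2 fold change above 0 and 0.0250% were called (0.0144% of 20857 detected probes in the fit over probes). The hosts had 0 of 8 genes at an unadjusted p under 0.05, where 6.49% of all genes were (780 genes). Their median log2 fold change was 0.22, against 0.0042 over all genes tested.

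**Figure D1:**
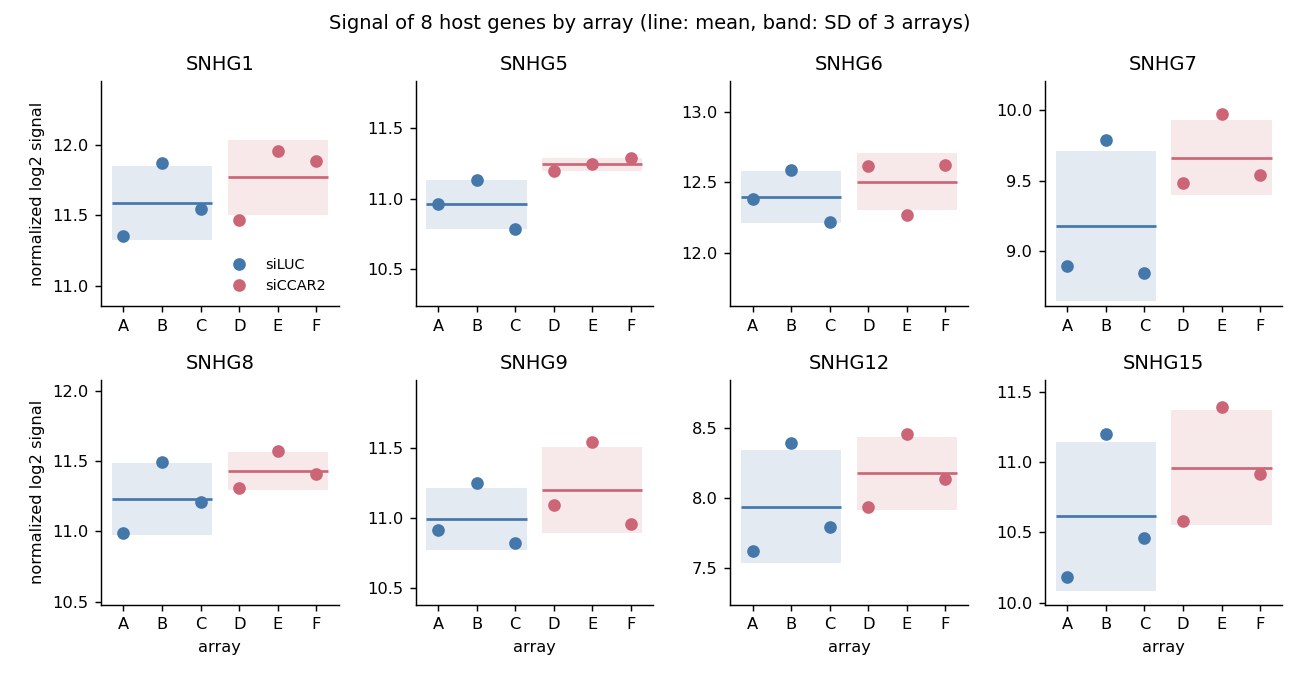
Normalized log2 signal (y axis, 1.6 log2 units in every panel) of the 8 detected host genes in siLUC arrays A to C and siCCAR2 arrays D to F (x axis). Points are arrays, lines are group means and bands are ± 1 SD (n = 3). Array B is the highest siLUC array in all 8 panels, and only in SNHG5 do the groups not overlap.

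SNHG7, which holds SNORA17A and SNORA17B, had the largest fold change among the hosts. Its normalized log2 signal was 8.89, 9.79 and 8.84 in siLUC arrays A, B and C and 9.48, 9.97 and 9.54 in siCCAR2 arrays D, E and F. Arrays A and C lay below all siCCAR2 arrays, and B lay above D and F, so that the groups overlapped. The means were 9.18 ± 0.53 (SD, n = 3) and 9.66 ± 0.27 (SD, n = 3), a log2 fold change of 0.49 with a standard error of 0.26 and a 95% interval from -0.10 to 1.08 (adjusted p = 0.793 from limma). The other 2 probes of SNHG7, annotated to another of its transcript records, had log2 fold changes of 0.29 and 0.22 in the fit over all detected probes (adjusted p = 0.855 and 0.894 from limma). Without array C the log2 fold change of SNHG7 was 0.32, and without B it was 0.79. All 3 probes had their highest siLUC signal in B and their highest siCCAR2 signal in E.

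SNHG15, the host of SNORA9, was likewise lowest in A and C and highest in E. Its signals were 10.18, 11.20 and 10.46 in siLUC and 10.58, 11.39 and 10.91 in siCCAR2 arrays. Array B was again above D and F. The log2 fold change was 0.35 with a standard error of 0.29 (95% interval from -0.30 to 0.99, adjusted p = 0.848 from limma), and it was 0.13 without array A or E, 0.64 without B and 0.54 without D. The second probe of SNHG15 gave 0.22 (adjusted p = 0.880 from limma in the fit over probes).

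SNHG5, which holds SNORD50A and SNORD50B, was the only host whose groups did not overlap. The probe used for it read 10.96, 11.13 and 10.79 in siLUC and 11.20, 11.25 and 11.29 in siCCAR2 arrays. The log2 fold change was 0.29 with a standard error of 0.14 (95% interval from -0.029 to 0.60, adjusted p = 0.776 from limma, and p = 0.1 in the two-sided exact permutation test, the smallest that 3 arrays against 3 allow). Groups that do not overlap, with siCCAR2 higher, were found for 6.35% of all genes and 5.80% of all detected probes. The other SNHG5 probe did not share this pattern. It read 10.67, 10.81 and 10.93 in siLUC and 10.83, 11.04 and 10.64 in siCCAR2 arrays, a log2 fold change of 0.033 (adjusted p of 0.978 in limma over probes).

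SNHG12 and SNHG1 each hold several small nucleolar RNAs. SNHG12 read 7.63, 8.39 and 7.80 in siLUC and 7.94, 8.46 and 8.13 in siCCAR2 arrays (log2 fold change of 0.24, standard error 0.22, 95% interval from -0.26 to 0.74). SNHG1, whose introns carry a cluster of C/D box RNAs, read 11.35, 11.87 and 11.54 in siLUC and 11.46, 11.96 and 11.88 in siCCAR2 arrays (log2 fold change of 0.18, standard error 0.19, 95% interval from -0.25 to 0.61). In both, array B lay above array D, and the groups overlapped. Leaving out 1 array moved SNHG12 between 0.082 (without A) and 0.46 (without B), and SNHG1 between 0.062 (without A) and 0.33 (without D).

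SNHG8, SNHG9 and SNHG6 hold 1 small nucleolar RNA each, namely SNORA24, SNORA78 and SNORD87. SNHG8 read 10.99, 11.50 and 11.21 in siLUC and 11.31, 11.57 and 11.41 in siCCAR2 arrays (log2 fold change of 0.20, standard error 0.16, 95% interval from -0.17 to 0.57). SNHG9 read 10.91, 11.25 and 10.83 in siLUC and 11.09, 11.54 and 10.96 in siCCAR2 arrays (log2 fold change of 0.20, standard error 0.19, 95% interval from -0.23 to 0.63). SNHG6 read 12.38, 12.59 and 12.22 in siLUC and 12.62, 12.27 and 12.63 in siCCAR2 arrays (log2 fold change of 0.11, standard error 0.16, 95% interval from -0.26 to 0.47). Each of these 3 values depended on single arrays. Leaving out 1 array moved SNHG8 between 0.075 (without A) and 0.33 (without B), SNHG9 between 0.031 (without E) and 0.33 (without B), and SNHG6 between 0.019 (without C) and 0.23 (without E). SNHG6 was the only host in which E was the lowest siCCAR2 array. With arrays scaled to their medians only, the median of all genes was -0.11, and there SNHG6 had a log2 fold change of -0.017 and SNHG5, read by its other probe, -0.10, which is 0.091 and 0.0050 above that median.

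The order of the arrays was shared by most hosts. In siLUC cells array B was the highest in 8 of 8 genes, and A or C was the lowest in 4 each. In siCCAR2 cells E was the highest in 6 of 8, F was the highest in SNHG5 and SNHG6, and D was the lowest in 6. Array E lay above B in 7 of 8 genes, whereas D lay above B in only 2 and F in 3. Set against the lower siLUC arrays, D was above both A and C in 7 of 8 genes, E in 7 and F in 8. The median deviation of the 8 hosts from their own means over 6 arrays was -0.34 in A, 0.18 in B and -0.27 in C, and -0.012 in D, 0.34 in E and 0.12 in F. Over all 12013 genes it stayed between -0.0060 and 0.011. The hosts thus differed between arrays of the same group. The median log2 fold change of the hosts was 0.12 without array A, 0.13 without E and 0.35 without B. If the arrays are paired as A-D, B-E and C-F, which no label gives, 7 of 8 hosts were higher in all 3 pairs, and under the other pairings 1 to 6 were. All 8 hosts stayed above 0 whichever single array was left out.

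The small nucleolar RNAs themselves lay above 0 in most cases. Of 301 such genes on the array, 132 were tested, and 103 of these (78.0%) had a log2 fold change above 0, with a median of 0.15. None was called, and at an unadjusted p under 0.05 in limma 9 were higher and 0 lower, where 3.49% of all genes were higher. Since 12 of the 132 were detected in no array of at least 1 group, the median was also taken with these at the detection limit, and was then 0.14. Of the 120 detected in both groups, 95 lay above 0, against 5799 of 11278 among all genes so detected. Among the 85 detected in all 6 arrays, 72 lay above 0 (84.7%) and the median was 0.21. By class, 44 of 58 C/D box RNAs (median 0.11), 50 of 63 H/ACA box RNAs (median 0.16, or 0.14 with 8 at the detection limit) and 9 of 11 Cajal body RNAs (median 0.19) lay above 0. Among those detected in both groups these were 42 of 54, 44 of 55 and 9 of 11. Mature small nucleolar RNAs carry no poly(A) tail, whereas the labelling kit named in the methods primes on one (the labels name a labelling guide for microRNA instead). A probe inside a small nucleolar RNA also matches the host's unspliced intron, and which of these forms the arrays read was not tested.

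**Figure D2:**
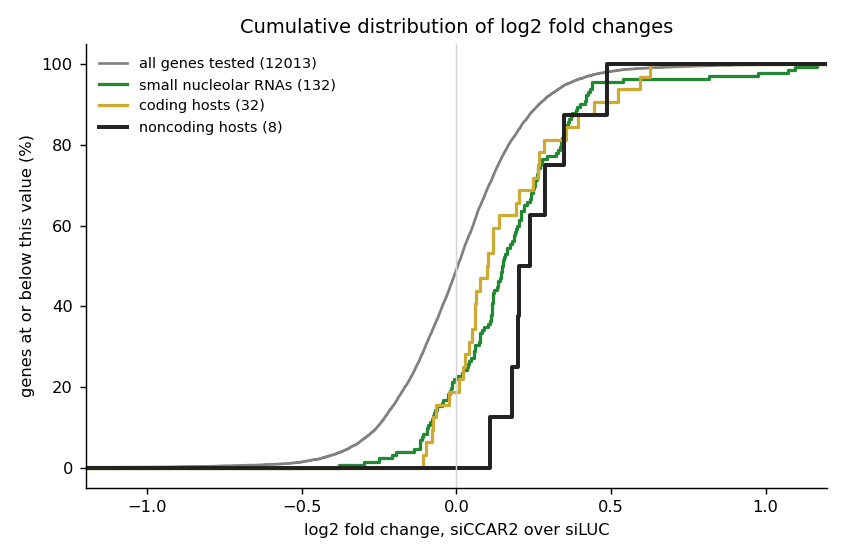
Share of genes (y axis, %) at or below each log2 fold change of siCCAR2 over siLUC (x axis) for all 12013 genes tested, 132 small nucleolar RNAs, 32 coding hosts and 8 noncoding hosts. The curves of the hosts and of the small nucleolar RNAs lie to the right of that of all genes, with medians of 0.22, 0.15 and 0.0042.

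By array, all tested small nucleolar RNAs and the noncoding hosts had medians on the same side of 0 in all arrays but F. The median deviation of the 132 small nucleolar RNAs was -0.16 in A, 0.19 in B and -0.25 in C, and -0.055 in D, 0.35 in E and -0.060 in F. In array F the hosts were at 0.12. The median log2 fold change of the small nucleolar RNAs was 0.026 without array E, with 73 of 132 above 0, 0.065 without C, 0.096 without A and 0.29 without B. Both sets of genes share the same 6 arrays, and what sets arrays B and E apart was not tested.

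**Figure D3:**
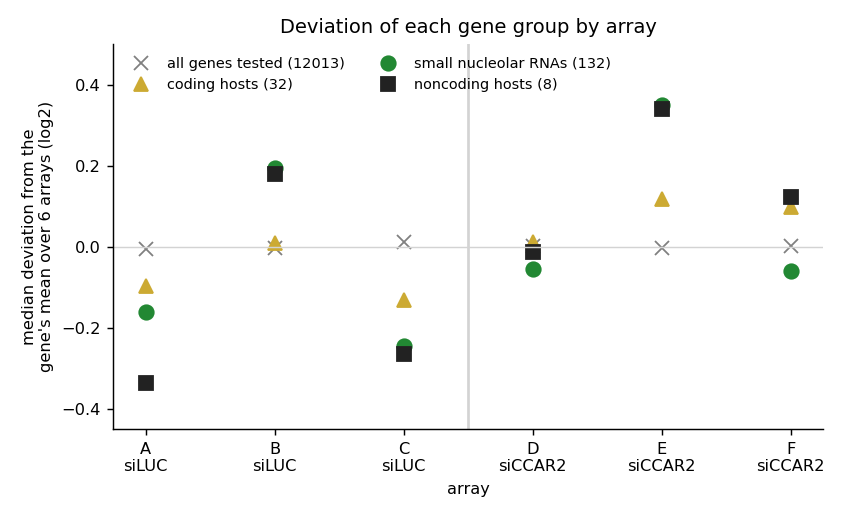
Median deviation (log2, y axis) of each gene group from the genes' own means over the 6 arrays, by array (x axis), for 8 noncoding hosts, 132 small nucleolar RNAs, 32 coding hosts and all 12013 genes. Hosts and small nucleolar RNAs are highest in arrays B and E of their groups, at 0.18 and 0.19 in B and at 0.34 and 0.35 in E.

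The annotation places 33 small nucleolar RNAs inside the 10 hosts, of which 28 are on the array and 16 were tested. Of these 16, 11 had a log2 fold change above 0 (68.8%), with a median of 0.15. With SNORA17A and SNORA9, detected in no siLUC array, at the detection limit, the median was 0.085. Of the 14 detected in both groups, 9 lay above 0. None of the 16 had an unadjusted p under 0.05 in limma without pairs. With the pairs A-D, B-E and C-F as a block, which no label gives, SNORA24, SNORA61 and SNORA73B did, and their 95% intervals ran from 0.17 to 0.68, from 0.062 to 0.61 and from 0.056 to 0.62 (adjusted p of 0.0862, 0.190 and 0.198 in limma). SNORA9 did too, but its level had only a bound. In that fit 17.3% of all genes and 27.3% of the 132 small nucleolar RNAs had an unadjusted p under 0.05. The 116 outside the hosts had 92 above 0 (79.3%) and a median of 0.15, with 86 above 0 of the 106 detected in both groups.

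GAS5, whose own probe was not detected, holds 11 of the 33, of which SNORD76 and SNORD80 were tested. SNORD80, which guides methylation of ribosomal RNA, read 8.35, 9.24 and 8.60 in siLUC and 8.45, 9.38 and 8.85 in siCCAR2 arrays (log2 fold change of 0.16, with an adjusted p = 0.931 in limma). SNORD76 was detected in 1 array of each group and its means did not exceed the detection limit, so no fold change is given. SNORA73A and SNORA73B, H/ACA box RNAs inside SNHG3, had log2 fold changes of 0.24 and 0.34. Both are near-identical in sequence, so the probes may not tell them apart, and both had their highest siLUC signal in B and their highest siCCAR2 signal in E. SNORD80 showed the same.

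Where host and inner RNA were both measured, SNORA24 in SNHG8 had the largest positive value. It read 9.57, 10.08 and 9.46 in siLUC and 9.95, 10.47 and 9.96 in siCCAR2 arrays, a log2 fold change of 0.42 with a standard error of 0.21 (95% interval from -0.055 to 0.90), against 0.20 for SNHG8. In SNHG12, SNORA61 had 0.34, SNORD99 0.26 and SNORA16A -0.045, against 0.24 for the host. In SNHG1, SNORD25 had 0.14, SNORD22 0.11 and SNORD30 0.039, against 0.18 for the host, and SNORD31 had -0.25. SNORD31 read 9.31, 9.85 and 9.67 in siLUC and 9.32, 9.45 and 9.30 in siCCAR2 arrays, so that B and C lay above all siCCAR2 arrays while A lay among them. In SNHG6, SNORD87 had -0.075, against 0.11 for the host.

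In SNHG7, SNORA17B was detected in 1 array of each group, and its means did not exceed the detection limit. SNORA17A was detected in 2 siCCAR2 arrays and in no siLUC array. Its siCCAR2 mean was 1.04-fold above the detection limit of the siLUC arrays, but the groups overlapped (adjusted p = 0.832 in limma). SNORA9, in SNHG15, was detected in 1 siCCAR2 array only, and its mean did not exceed the limit. No fold change is given for SNORA17A, SNORA17B or SNORA9. For SNHG5 and SNHG9 no inner RNA was detected.

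**Figure D4:**
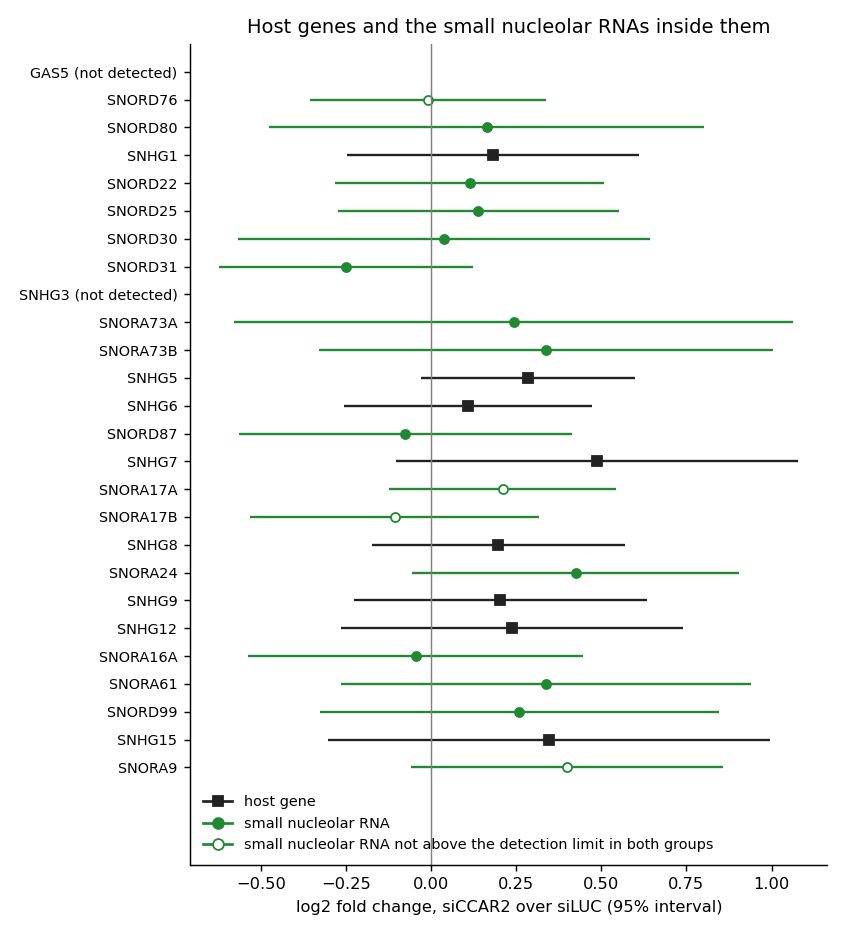
Log2 fold change of siCCAR2 over siLUC with its 95% interval (x axis, limma) for each host gene (squares) and the small nucleolar RNAs inside it (circles, open where the RNA was not above the detection limit in both groups, so that the value is no measured change). Every interval includes 0. Values range from -0.25 for SNORD31 to 0.49 for SNHG7.

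The change of each inner RNA relative to its own host was tested in the 9 couples, of 4 hosts, in which the inner RNA was detected in both groups with means above the detection limit. In 6 couples host and inner RNA had the same sign and in 3 the opposite one. The difference between the log2 fold changes (inner RNA minus host) ranged from -0.43 for SNORD31 in SNHG1 to 0.23 for SNORA24 in SNHG8, with a median of -0.067, and was negative in 6 couples. SNORA16A against SNHG12 gave -0.28, with SNORA16A detected in only 3 of 6 arrays. Of single genes, 12.0% of all tested had groups that did not overlap, in either direction. The log2 ratios of SNORD31 and SNORA16A to their hosts did not overlap between the groups (p = 0.1 in the exact permutation test, two-sided, and 0.45 after adjustment over the 9 couples). Several couples share a host. The smallest p of this test with 3 arrays per group is 0.1, so it could not pass the threshold for any couple.

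Some small nucleolar RNAs outside the hosts had larger fold changes than any host. SCARNA13, a Cajal body RNA, read 9.10, 9.12 and 8.65 in siLUC and 9.82, 9.63 and 9.86 in siCCAR2 arrays, a log2 fold change of 0.82 with a standard error of 0.17 (adjusted p = 0.486 in limma). SCARNA11, of the same class, had 0.97, and its groups did not overlap either (adjusted p = 0.624 in limma). With siCCAR2 higher, groups did not overlap for 8 of the 132 tested small nucleolar RNAs and for 6.35% of all genes. SNORD3A, SNORD3C and SNORD3D, copies of the U3 RNA that is needed for processing of the ribosomal precursor, had log2 fold changes of 1.07, 1.17 and 1.09, with groups that overlapped (adjusted p = 0.767 for each from limma). The U3 copies are nearly identical, so that their 3 probes are not independent. They are transcribed from genes of their own and not from introns. These 5 RNAs were chosen after their values were seen.

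Other noncoding hosts, listed for comparison, went both ways. Of 15 listed, 10 are on the array and 8 were tested, of which 6 lay above 0 (median of 0.23). ZFAS1, a host of C/D box RNAs, read 11.54, 11.85 and 12.03 in siLUC and 12.18, 12.20 and 12.28 in siCCAR2 arrays (log2 fold change of 0.41, standard error 0.16). EPB41L4A-AS1, the host of SNORA13, read 11.08, 11.23 and 11.11 in siLUC and 11.50, 11.54 and 11.45 in siCCAR2 arrays (log2 fold change of 0.36, standard error 0.13). For both the groups did not overlap. DANCR, the host of SNORA26, read 12.71, 12.77 and 12.23 in siLUC and 12.27, 12.31 and 11.85 in siCCAR2 arrays, where C lay below D and E (log2 fold change of -0.43, standard error 0.19). The adjusted p of these 3, named for the smallest p of their list, lay between 0.767 and 0.772 in limma.

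Protein-coding hosts, many of them genes of ribosomal proteins, were read in the same way. Of 32 tested, 26 lay above 0 (81.2%), with a median of 0.10, and none was called. At an unadjusted p under 0.05 in limma 3 were higher and none lower, where 3.49% of all genes were higher. RPL17, a large-subunit protein, had a log2 fold change of 0.59, RPL12 0.45 and RPL32 0.35, and these are the same 3, with the smallest p. The median deviation of the coding hosts was 0.0092 in array B and 0.12 in E, against 0.18 and 0.34 for the noncoding hosts.

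Factors of nonsense-mediated decay and proteins of the small nucleolar particles were read beside the hosts. Of 11 decay factors tested, 8 lay above 0 with a median of 0.056, and none was called. The 3 of smallest p were UPF2, with a log2 fold change of -0.32 (unadjusted p = 0.0378 and adjusted p = 0.767 in limma), PNRC2 with -0.31 and UPF1, the central helicase of this pathway, with 0.21. The groups did not overlap, with siCCAR2 lower, for UPF2 alone of the 11 and for 682 of all 12013 genes. All 15 proteins of the small nucleolar particles or their assembly were tested, of which 11 lay above 0 with a median of 0.077, and 0 had an unadjusted p under 0.05 in limma. RUVBL1, an assembly helicase, had 0.29, NOP10, a core protein of H/ACA particles, 0.20 and NAF1, an assembly factor of the same particles, -0.21.

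The mean profile of the 8 hosts over the 6 arrays was most like those of RPS15, a small-subunit ribosomal protein gene (Pearson correlation of 0.996), PIWIL2 (0.994) and REXO4 (0.994). With 6 arrays such values are common. Of 12005 other genes, 546 (4.55%) had a correlation above 0.9 with that profile, and so did 30 of the 132 small nucleolar RNAs (22.7%). All these profiles come from the same arrays, and the values are descriptions.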

How the data were processed

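Mean bead signals of HT12_v4 arrays were deposited by the authors as non-normalized intensity values on a linear scale, each with a detection p-value against negative control beads. For this step BeadStudio 3.8 is named in the labels and GenomeStudio in the methods. A second deposited table holds quantile-normalized intensity (column medians of 112.839 to 112.919), and was used as an alternative. The methods name robust spline normalization, which was not run here.

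Of 47321 probes, 30112 carry 1 symbol in the platform annotation, 8 carry several and 17201 none. No background correction was applied before log2 transformation and quantile normalization. The 20857 probes that 1 array or more detected (p-value under 0.01) were kept. The probe detected in most arrays, then that of highest interquartile range, stood for each of 12013 genes, as in the methods. Groups were compared in R 4.3.3 by the moderated test of limma 3.58.1, and p-values were adjusted by Benjamini-Hochberg over all genes. All probes of the hosts were also read in a fit over all detected probes. For an RNA detected in no array of a group, the other group's mean was set against the lowest detected signal of each array, called the detection limit. Couples of host and inner RNA were kept where both means of the inner RNA exceeded it, a condition set after seeing the data. Fits were tested on simulated data. Figures were drawn with matplotlib 3.10.9.

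Members and lists were chosen with earlier results of these data known. Named genes are all hosts, every tested small nucleolar RNA inside them, from each of 4 lists every called member and the 3 of smallest p (other noncoding hosts, coding hosts, decay factors, particle proteins), CCAR2, and the 3 genes most like the hosts' mean profile. Cell type markers are named as checks, outside this rule. The alternatives were neqc (offset 16), the deposited table, cyclic loess, median scaling, other detection filters and probe choices, a variance trend, array weights, no fold threshold, leaving out arrays, and a replicate block. No label pairs the arrays, although a supplementary sheet is named as paired, so each of the 6 pairings was tried as a block and the unpaired fit is the main one. Small nucleolar RNAs were assigned to a host by the annotated spans alone, since the annotation used gives no strand.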

Additional observations from a re-analysis of the deposited data

How the results depend on the processing

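No host was called under any of the 24 alternatives. The median log2 fold change of the hosts stayed above 0 in all 23 alternatives that gave it. It lay between 0.063 with median scaling alone (0.17 above the median of all genes) and 0.35 without array B. The replicate blocks, the variance trend and the other detection filters could not move this median, since they left the hosts' fold changes as they were. Leaving out 1 array gave 0.12 to 0.35 for the hosts and 0.026 to 0.29 for the small nucleolar RNAs, whose median was 0.046 with no detection filter. With median scaling alone SNHG5 (-0.10, read by its other probe) and SNHG6 (-0.017) fell on the other side of 0, where the median of all genes was -0.11, and lay 0.0050 and 0.091 above it. Without both B and E, an alternative chosen after seeing the data, the host median was 0.32.

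The number of genes called, 3 in all, was 0 with neqc, with scaling to the median only, when the brightest probe stood for each gene, and without B and E, 18 with array quality weights, and between 0 and 8 when 1 array was left out. With a replicate block it was 200 for the pairs A-D, B-E and C-F, 15 for A-F, B-E and C-D, and 0 for the other 4 pairings. With the first of these pairings the deviations of paired arrays correlated at 0.615, 0.665 and 0.440. Other couples of a siLUC and a siCCAR2 array lay between -0.527 and 0.143. That first pairing left the hosts' fold changes as they were and narrowed their intervals. These ran from 0.20 to 0.77 for SNHG7, from 0.082 to 0.61 for SNHG15 and from 0.014 to 0.56 for SNHG5. The adjusted p were 0.0745, 0.162 and 0.263 (limma). These 3 had an unadjusted p under 0.05 there, as had 36 of 132 small nucleolar RNAs (27.3%, against 17.3% of all genes), where the fit without pairs had 9. The pairing is not in the labels, and the other 5 gave 6 to 26. Signals of GAS5 and SNHG3 at background limit what can be said of them.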
